A study of Mus musculus with 6 samples.

Results

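The adipogenic regulators studied here are 10 genes that steer the conversion of fibroblasts into fat cells or act early in fat storage: Pparg, Cebpa, Cebpb, Cebpd, Fabp4, Lpl, Cd36, Plin2, Dlk1 and Zfp423. They were found as all probes carrying one of these names on the array, excluding control probes, which gave 14 probes for 10 of the 22942 genes on the array that could be matched to RefSeq. 3T3 cells, an established line of mouse fibroblasts, received 50 nM of GapmeR Ntep, which is an antisense molecule directed at the lncRNA Ntep, or of GapmeR control by transfection for 48 h. Both groups were grown in the same serum-containing medium, and the labels name no adipogenic stimulus. There were 3 arrays per group, 1 from each of 3 independent experiments, and the study used them to learn how Ntep affects fibroblasts.

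During fat cell formation, Cebpb and Cebpd are induced early and turn on Pparg and Cebpa, a pair of factors that then sustain each other and switch on genes of the fat cell. Zfp423 acts before that cascade and commits fibroblasts to the fat lineage, whereas Dlk1 keeps preadipocytes undifferentiated. Fabp4, Lpl and Cd36 handle fatty acids and are classical targets of Pparg, and Plin2 coats lipid droplets in many cell types.

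Ntep itself, named A630089N07Rik on the array, was read by 1 probe on chromosome 16 (mm9, 98283712 to 98283771). In experiments 1, 2 and 3 it gave a normalized signal of 472, 91.5 and 226 under the label GapmeR Ntep. Under the label GapmeR control it gave 271, 272 and 361. The groups overlapped, and in experiment 1 the array labelled GapmeR Ntep was the brighter of its pair, against its label. The log2 difference was -0.48 (SE 0.58, limma adjusted p = 0.632), smaller than its SE. For this reason the arrays are called by their labels throughout, and each direction below is that of the label.

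The cells carried a fibroblast profile under either label. Of 12 fibroblast markers, 10 were well above background, by the scanner software's own call, on all 6 arrays, S100a4 among them (96433 to 170963). Of the 8 markers of mature fat cells, 1 was well above background on all arrays, and Lep, Cidec and Adrb3 were not on any. The brightest of that list was Slc2a4, the insulin-responsive glucose transporter, at 97.9, 352 and 190 on the arrays labelled GapmeR Ntep and 208, 662 and 830 on those labelled GapmeR control. Summed over the 8 genes, the signal was 349, 612 and 425 against 396, 909 and 1153. None of the 4 fat cell markers tested passed either rule given below, and 0 had an unadjusted p under 0.05 in limma. With experiments as blocks Slc2a4 passed the first of these rules with a lower signal (log2 difference -1.38), and its limma adjusted p was 0.0567. The unpaired difference was -0.91 without GapmeR Ntep replicate 1, -1.99 without GapmeR control replicate 1 and -0.96 with normexp.

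Differences were tested with limma over 30990 probes whose mean signal reached 50 in the brighter group, and each gene was read from its brightest tested probe. A gene passed the first rule at a fold change of at least 2 with an unadjusted two-sided p under 0.01, and the second at an adjusted p under 0.05. Of 15242 genes tested, 9.10% passed the first rule, 3.18% with a higher and 5.92% with a lower signal under the label GapmeR Ntep. The second rule was passed by 6.0%, with 2.32% higher and 3.68% lower. Of the 10 adipogenic genes 8 were tested, and 1 of them, Fabp4, passed the first rule, with a higher signal. None passed the second rule in limma, and 3 had an unadjusted p under 0.05 (Pparg, Fabp4 and Zfp423), as had 28.1% of all genes tested. The signals of both groups did not overlap at the brightest probe of those 3 genes, where 36.2% of all genes tested did not overlap. A count of 1 of 8 lies near the 9.10% of all genes and is no result about the adipogenic genes as a set. With experiments as blocks the count at the first rule went from 1 to 0 among the adipogenic genes and from 1387 to 1958 over all genes. At the second rule it stayed at 0 and went from 914 to 2443.

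**Figure D1:**
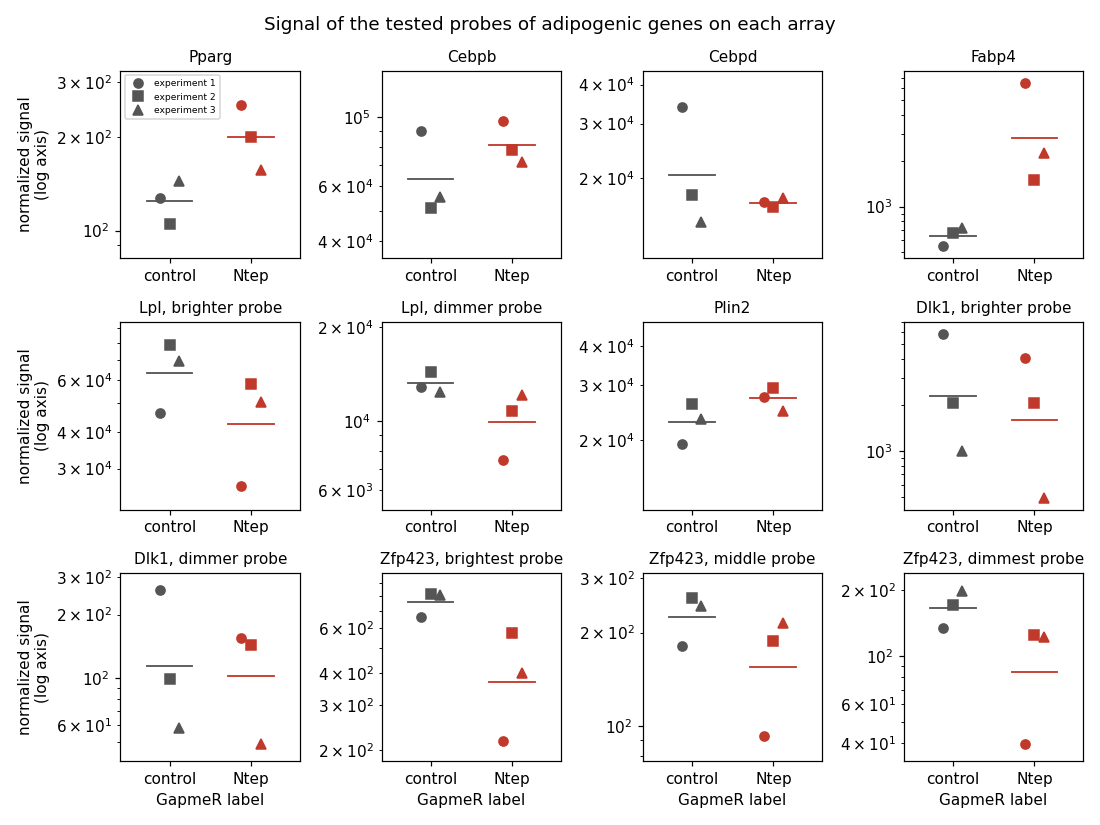
Normalized signal (log axis) of each tested probe of the adipogenic genes on the 3 arrays of each label. Marker shapes give the experiment and bars the mean of log2 values. Fabp4 lies between 1495 and 6498 on the arrays labelled GapmeR Ntep and between 549 and 722 on those labelled GapmeR control.

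Among the regulators of the cascade, Pparg, the nuclear receptor at its center, was present at a low signal. Its probe on chromosome 6 (mm9, 115440213 to 115440272) gave 253, 200 and 156 in experiments 1 to 3 under the label GapmeR Ntep. Under the label GapmeR control it gave 127, 105 and 144. All 3 arrays labelled GapmeR Ntep were brighter than all 3 controls, with the smallest gap in experiment 3. Pparg differed by 0.68 on the log2 scale (SE 0.24, limma adjusted p = 0.155) and did not pass either rule, and an exact two-sided permutation test gave p = 0.1, the smallest that 3 against 3 arrays allow. Within experiments the differences were 1.00, 0.93 and 0.12.

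The Pparg probe is printed 10 times on each array, so its technical spread could be read directly. Before normalization between arrays the 10 spots ranged from 207 to 262 on GapmeR Ntep replicate 1, with a median of 233. On GapmeR control replicate 1 they ranged from 93.8 to 157, with a median of 120, so the spots of this pair did not overlap. In experiment 2 the spots did not overlap either (188 to 268 against 80.8 to 127). In experiment 3 they ranged from 122 to 201 (median 140) and from 106 to 281 (median 132), which overlap. The scanner software marked 1 spot as an outlier on each of GapmeR Ntep replicate 1, GapmeR Ntep replicate 3 and GapmeR control replicate 3. With these spots left out, the mean signal on GapmeR control replicate 3 went from 139.8 to 124.

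Cebpa, the partner of Pparg, was not well above background on any of the 6 arrays. Its probe stood at the floor of 20 on 5 of them and at 27.7 on GapmeR control replicate 2, and it was not tested. Cebpb, one of the early inducers, was bright throughout, at 97119, 78191 and 71531 against 90048, 51011 and 55185. It was higher on the array labelled GapmeR Ntep in each experiment, but the groups overlapped. The log2 difference was 0.37 (SE 0.27, limma adjusted p = 0.452).

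Cebpd, the other early inducer, gave 16729, 16175 and 17274 on the arrays labelled GapmeR Ntep and 33926, 17665 and 14467 on those labelled GapmeR control. GapmeR control replicate 1 stood apart from the other 5 arrays, which lay close together. The log2 difference was -0.30 (SE 0.33, limma adjusted p = 0.608), and without GapmeR control replicate 1 it turned to 0.065.

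Zfp423, the zinc finger protein of fat lineage commitment, was read by 3 probes on chromosome 8. The brightest (mm9, 90185710 to 90185769) gave 217, 570 and 401 on the arrays labelled GapmeR Ntep. The control arrays gave 661, 815 and 806.5. All arrays labelled GapmeR Ntep lay below all controls, the lowest being replicate 1. This probe differed by -1.04 (SE 0.37, limma adjusted p = 0.152), which exceeded fold 2 but did not pass the first rule, except without GapmeR Ntep replicate 2 (-1.36, limma adjusted p = 0.0782). It was below fold 2 in 6 of 18 alternatives, the lowest being -0.66 when replicate 1 was left out instead and -0.54 with the median of the 3 probes. The other probes differed by -0.97 (90185918 to 90185977) and -0.54 (90210329 to 90210388), and neither passed. All 3 probes were lower on the array labelled GapmeR Ntep in each experiment. The -0.97 probe was not well above background on GapmeR Ntep replicate 1.

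Dlk1, the preadipocyte inhibitor, varied more between experiments than between labels. Its brighter probe gave 4050, 2060 and 494 on the arrays labelled GapmeR Ntep and 5835, 2071 and 993 on those labelled GapmeR control. Under both labels experiment 1 was highest and experiment 3 lowest. The log2 difference was -0.51 (SE 0.95, limma adjusted p = 0.763). Within experiments the differences were -0.53, -0.0079 and -1.01, so at this probe no experiment had a higher signal under the label GapmeR Ntep. The unpaired difference changed direction when GapmeR Ntep replicate 3 was left out (0.34) and when the control array of experiment 1 was (0.16), omissions that each leave 1 experiment without its pair. A dimmer probe, well above background on 2 arrays of each label, differed by -0.16 and turned to 0.38 and 0.44 in the same order. Within experiments its differences were -0.75, 0.53 and -0.25, so it was higher under the label GapmeR Ntep in experiment 2.

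Of the genes that handle fatty acids, Fabp4, which carries fatty acids in the cytosol of fat cells and macrophages, differed most. Its probe on chromosome 3 (mm9, 10204452 to 10204511) gave 6498, 1495 and 2262 on the arrays labelled GapmeR Ntep. The control arrays gave 549, 672 and 722. All arrays labelled GapmeR Ntep were brighter than every control, and replicate 1, the array on which the Ntep probe went against its label, was the brightest. Means were 3418 ± 2695 and 648 ± 88.8 (SD, n = 3 each). Fabp4 was 4.35-fold higher by the difference of log2 means (log2 2.12, SE 0.54). Within experiments the log2 differences were 3.56, 1.15 and 1.65.

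Fabp4 passed the first rule with an unadjusted limma p of 0.00757 and missed the second (adjusted p = 0.0765), and the exact permutation p was 0.1. The call depended on how the spread was estimated. It was lost with experiments as blocks, with the methods' t-test, without a filter on dim probes, and when limma's prior of the spread was taken over all probes, those at the floor included (a setting chosen after seeing the data). It was also lost without GapmeR Ntep replicate 3 or any 1 control array. With a trended, robust prior Fabp4 passed the second rule (adjusted p = 0.0469). The adjusted p ranged from 0.0469 to 0.229 over 18 alternatives, and in all 18 Fabp4 was higher, by 1.51 without GapmeR Ntep replicate 1 at the least.

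Markers of macrophages, which also express Fabp4, were read on the same arrays. Of 10 markers, 4 were well above background on all arrays (Cd68, Csf1r, Itgam and Cd14), and Ptprc, Adgre1, Fcgr1, Msr1 and Mrc1 were not on any. Their summed signal came to 75276, 42496 and 50495 under the label GapmeR Ntep and 27444, 19974 and 21352 under the label GapmeR control, with Itgam as the brightest gene. Among 5 tested, Cd68 (log2 1.21, limma adjusted p = 0.0287) and Cd14 (1.11, adjusted p = 0.0627), named after their values were seen, rose past the first rule, as did 3.18% of all genes. Csf1r had the largest difference (3.19, adjusted p = 0.151), with overlapping groups, and passed both rules only with experiments as blocks (adjusted p = 0.0387). It passed the first rule also without GapmeR control replicate 1 (4.41), and with the median of its probes it was 1.81. Lyz2 differed by -0.18 (adjusted p = 0.746). With blocks Cd14 passed the second rule too (adjusted p = 0.0332), and it lost its call with the methods' t-test. Itgam differed by 1.26 (adjusted p = 0.0881) and passed both rules with experiments as blocks (adjusted p = 0.0397), whereas with the median of its probes it was 0.61. The median over the 5 was 1.21, against 0.0029 over all genes. Of the 5, 4 had an unadjusted limma p under 0.05, against 28.1% of all genes. The part of these genes in the Fabp4 result was not tested, and in such bulk samples fewer or more cells of a type and less or more RNA per cell cannot be told apart. Of 8 endothelial markers 4 were well above background on all arrays, led by Kdr, and Cdh5, Tek, Emcn and Tie1 were not on any. The summed endothelial signal was 1114, 1141 and 1183 against 936, 1082 and 1120, and none of the 4 tested passed. An unadjusted limma p under 0.05 was reached by 1 of them (Kdr, log2 difference 0.41), as by 28.1% of all genes. The largest difference of the 4 was a lower signal of Vwf (-1.08, limma adjusted p = 0.237), named after its values were seen, with overlapping groups.

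Lpl, the lipase that releases fatty acids from circulating lipoproteins, was bright and was read by 2 probes on chromosome 8. The brighter one gave 26150, 58121 and 50462 on the arrays labelled GapmeR Ntep and 46257, 78542 and 69302 on those labelled GapmeR control. It was lower on the array labelled GapmeR Ntep in each experiment, although the groups overlapped. The log2 difference was -0.57 (SE 0.37, limma adjusted p = 0.392). The dimmer probe differed by -0.41 (SE 0.23, adjusted p = 0.315), and its groups did not overlap. Without GapmeR Ntep replicate 1 the differences were -0.22 and -0.21.

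Plin2, the lipid droplet coat protein, gave 27564, 29440 and 24749 against 19409, 26084 and 23329. It was higher on the array labelled GapmeR Ntep in each experiment by 0.51, 0.17 and 0.085, with overlapping groups. At a log2 difference of 0.26 (SE 0.19, limma adjusted p = 0.439), it did not pass either rule. Cd36, a fatty acid transporter, was not well above background on any array and stood at the floor of 20 on all 6. Fabp4, Lpl and Cd36 therefore had different readings here, with a higher signal, a lower value that did not pass, and no signal above background.

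**Figure D2:**
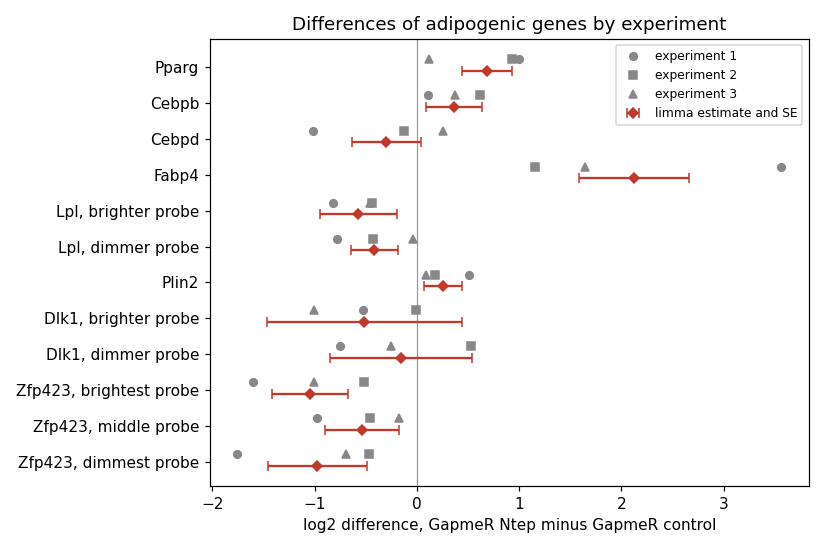
Log2 difference between GapmeR Ntep and GapmeR control for each tested probe. Gray markers are the differences within each experiment, and red diamonds with bars are limma estimates with their SE. Fabp4 has the highest estimate (2.12) and the brightest Zfp423 probe the lowest (-1.04).

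Furin, a protease that processes proproteins, was 1 of the 2 genes whose signal followed Fabp4 most closely over the 6 arrays (Pearson r = 0.995), among 12414 genes well above background on all of them. It differed by 0.76 (limma adjusted p = 0.123). The coefficient describes 6 arrays that fall into 2 groups.

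Of 30 other regulators known to promote fat cell formation 25 were tested, and 2 passed the first rule with a higher and 2 with a lower signal under the label GapmeR Ntep, where 3.18% and 5.92% of all genes did. At the second rule 1 was higher and 0 lower, against 2.32% and 3.68%. An unadjusted limma p under 0.05 was reached by 12 of the 25, against 28.1% of all genes. Egr2, an early factor upstream of Cebpb, rose from 348 ± 46.0 to 1283 ± 618 (SD, n = 3 each). It was the only gene of the list past the second rule (log2 difference 1.79, SE 0.35, limma adjusted p = 0.0467). It missed the second rule in 8 of 18 alternatives, among them the prior taken over all probes (0.0738), no filter (0.127), the methods' t-test and the omission of any 1 array other than GapmeR Ntep replicate 2 (0.0592 to 0.182).

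Klf9, a Krüppel-like factor that promotes the middle stage, rose by 1.11 (limma adjusted p = 0.0607) and lost its call with experiments as blocks. Zfp467 fell by 1.79 (adjusted p = 0.0524) and Insr, the insulin receptor, fell by 1.25 (adjusted p = 0.0621). With the median of a gene's probes neither passed (-0.65 and -1.14, adjusted p = 0.524 and 0.178). Xbp1 (-0.16) and Nr3c1 (-0.23), the glucocorticoid receptor, had the highest means of log2 signals in the list and did not pass. The median over the 25 was -0.23, and by experiment it was -0.30, -0.025 and 0, against 0.0029 for all genes.

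Of 33 inhibitors of fat cell formation 31 were tested, and at the first rule 1 was higher and 2 lower (3.18% and 5.92% of all genes), with 0 and 2 at the second (2.32% and 3.68%). Zfp521, which binds and blocks early B cell factors and opposes Zfp423, fell from 3010 ± 370 to 1499 ± 252 (SD, n = 3 each, log2 difference -1.01, limma adjusted p = 0.0466). Irf3 fell by 0.83 (adjusted p = 0.0430) and passed only the second rule. Klf2, which represses Pparg, fell by 2.13 (adjusted p = 0.0640), and Foxc2 rose by 1.42 (adjusted p = 0.0621). Trib3, the brightest, was 0.94 higher and missed both rules (adjusted p = 0.0570), although it passed 1 of them in 7 of 18 alternatives, and Yap1 differed by -0.14. With 75th percentile scaling neither Zfp521 (0.0643) nor Irf3 (0.088) passed the second rule, and with the median of a gene's probes Zfp521 passed neither (-0.60, adjusted p = 0.0751). The median over the 31 was -0.14, with -0.21, -0.14 and -0.033 by experiment. With that scaling it was 0.048, and the median of all genes moved by 0.15. Of the 31, 10 had an unadjusted limma p under 0.05, against 28.1% of all genes.

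Of 40 genes of fat storage and other fat cell functions 36 were tested. At the first rule 2 were higher and 0 lower (3.18% and 5.92% of all genes), and 0 passed the second in limma (2.32% and 3.68% of all genes). With experiments as blocks 5 of the 36 passed the second rule, as did 2443 of all 15242 genes tested. Gpd1, which makes the glycerol backbone of triglycerides, rose from 572 ± 124 to 1999 ± 1148 (SD, n = 3 each, log2 difference 1.68, limma adjusted p = 0.0699). Pck1, an enzyme of glycerol and glucose synthesis, was well above background on all arrays labelled GapmeR Ntep and on no control array. It was at least 1.43-fold higher, taking for each control array the lowest signal among probes well above background there, or its own if higher. It reached the mean signal of 50 needed for a test only in the group where it is high, so its call is no independent evidence, and it was lost without that filter. Both lost their call with the methods' t-test and with the prior taken over all probes. The brightest, Fabp5 (-0.37) and Scd2 (-0.16), did not pass. The median over the 36 was 0.11, with 0, 0.095 and 0.11 by experiment. Of the 36, 7 had an unadjusted limma p under 0.05, against 28.1% of all genes.

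Genes of other mesenchymal fates were also read, since fibroblasts can turn to bone, cartilage or muscle. Of 18 genes 12 were tested, and at the first rule 2 were higher and 1 lower (3.18% and 5.92% of all genes), with 1 and 0 at the second (2.32% and 3.68%). Spp1, a bone matrix protein also made by macrophages, rose from 1690 ± 231 to 7441 ± 666 (SD, n = 3 each, log2 difference 2.14, SE 0.18, limma adjusted p = 0.0157). Bglap, the osteocalcin gene, was well above background on 2 arrays labelled GapmeR Ntep and on no control array (105, 61.4 and 58.2 against 30.5, 20.9 and 34.8). It too reached the mean signal needed for a test only in the group where it is high, and its call was lost without the filter. Myog, a muscle regulator and the 1 lower gene, was well above background on 1 array labelled GapmeR Ntep and on all controls (20, 90.6 and 39.5 against 149, 514 and 424), so the size of its difference was not measured. Acta2, the brightest, differed by 0.36, and by 0.073 to 0.80 when 1 array was left out. The median over the 12 was 0.43, with -0.19, 0.78 and 0.17 by experiment. Of the 18 genes, 4 were well above background on all arrays and 6 on none. The median thus rests largely on dim genes, Myog included. An unadjusted limma p under 0.05 was reached by 4 of the 12, against 28.1% of all genes.

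In the 18 alternatives the first rule was passed 18 times by Spp1, 17 by Cd68, which fell below fold 2 with the median of its probes, 15 by Egr2 and 13 by Zfp521. It was passed 12 times each by Cd14, Insr and Zfp467, 11 each by Klf9, Foxc2, Gpd1 and Myog, 10 each by Fabp4 and Klf2, and 8 each by Pck1 and by Bglap, which was not tested in 1 of them. The second rule was passed 15 times by Spp1, 12 by Cd68, 11 by Irf3, 10 by Egr2 and 8 by Zfp521.

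With experiments as blocks, the genes past the second rule went from 1 to 6 among the promoting regulators and from 2 to 6 among the inhibitors. They went from 0 to 5 among the fat storage genes and from 1 to 4 among the genes of other fates. The count over all 15242 genes went from 914 to 2443. Of the 12 calls at the first rule in the 4 lists, only those of Zfp521 and Spp1 remained with the methods' t-test, and with the prior taken over all probes those of Klf2, Foxc2, Gpd1, Pck1, Bglap and Myog were lost. Each of the 4 lists had 0 genes past the second rule when Ntep replicate 3, control replicate 2 or control replicate 3 was omitted. Among the fibroblast markers, 10 of 11 tested had a lower signal under the label GapmeR Ntep, and their median was -0.71 against 0.0029 over all genes. Fbn1 (-0.88, limma adjusted p = 0.0439), named after its values were seen, was the 1 that passed the second rule, which 3.68% of all genes passed with a lower signal, and it did so in 9 of 18 alternatives. None passed the first, and 3 of the 11 had an unadjusted limma p under 0.05, against 28.1% of all genes. The summed signal of these markers was 582031, 740045 and 558515 against 864241, 896468 and 812934, and its part in the results for the adipogenic genes was not tested.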

How the data were processed

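Per the file headers, the arrays are 1-color Agilent mouse arrays on 1 slide. The deposited scanner values are intensities on a linear scale, background subtracted by the authors with Agilent Feature Extraction 10.7.3.1 (the submitters' processing notes) and not normalized between arrays. Well above background were 43.7% to 53.3% of 55681 probes per array, and no probe was saturated. The number of arrays limits precision.

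Spots of a probe were averaged, outlier spots included. After quantile normalization between arrays, 20 was taken as the floor and signals were put on a log2 scale. Labels were then contrasted by limma 3.58.1 (R 4.3.3), unpaired and two-sided, with Benjamini-Hochberg adjustment over the 30990 probes tested. limma's prior of the spread was estimated on these probes (2.08 prior degrees of freedom). Estimated over all 55681 probes, of which 9956 have no spread because they lie at the floor, it had 0.439. The latter was run as an alternative chosen after seeing the data. Against the intensities normalized and deposited by the authors, single-spot probes differed by at most 0.0493 on the log2 scale, whereas probes with several spots differed by up to 9.35. The part of outlier spots in these differences was not tested. Among the adipogenic genes only Pparg has a probe with several spots, and it differed by up to 0.183.

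Probes were matched to RefSeq (GRCm38.p6) by accession, symbol or older symbol, 31239 of them. Coordinates are mm9, from the files. Replicate numbers follow the 3 independent experiments of the study's documentation. For arrays sharing a number, deviations from the label mean had correlations of 0.466, 0.300 and 0.254. Arrays with unlike numbers ranged from -0.327 to 0.126. Arrays sharing a number thus deviated together more than the others. With 3 arrays per label, deviations from the label mean depend on each other, so these correlations cannot establish the pairing. Experiments were also fitted as blocks.

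Named were all adipogenic genes and Ntep. In each pathway list these were up to 6 genes past the adjusted p, up to 4 past fold and p alone, and the 2 brightest, by the mean of log2 signals over the arrays. In marker lists they were the brightest and those never above background, with Fbn1 and the tested macrophage markers added after their values were seen, and the 2 genes most correlated with a member past a rule were added, of which 1 is not reported here. Members and lists were chosen with earlier results of these data known. Alternatives were 75th percentile scaling, the authors' values, normexp, a floor of 5, other filters, removal of outlier spots, blocks, a trended robust prior, the methods' t-test, the median of a gene's probes and the omission of each array. The steps were tested on simulated data.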

Additional observations from a re-analysis of the deposited data

How the results depend on the processing

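Over all genes, 1387 passed fold 2 and p 0.01. The methods' t-test gave 790 and the replicate block 1958, and leaving out 1 array gave 801 to 1688. The lowest came from omitting control replicates 2 (801) and 3 (829). At an adjusted p under 0.05 there were 914 genes, against 170 with the methods' t-test, 324 without a filter, 1563 with normexp, 1675 with a trended robust prior, 1669 among probes well above background in 1 group and 2443 with the replicate block. Leaving out 1 array gave 0 to 739. The count was 0 without GapmeR Ntep replicate 3 or control replicate 2, 2 without control replicate 3, 69 without control replicate 1 and 249 without Ntep replicate 1. The cause was not tested.

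Of the adipogenic genes, 1 passed fold 2 and p 0.01. The count was 0 with the methods' t-test, without a filter, with the replicate block and with the spread estimated over all probes (chosen after seeing the data), and 0 to 2 when 1 array was left out. It was 2 without Ntep replicate 2, where Zfp423 passed too. At an adjusted p under 0.05 the count of 0 became 1 with the trended robust prior. Among other named genes, the replicate block ended the call of Klf9 at fold 2 and p 0.01 and added Itgam, Csf1r and Slc2a4 there, and it brought Itgam, Csf1r, Cd14, Bglap, Foxc2, Gpd1, Insr, Klf2, Myog and Zfp467 past the adjusted p. It changed no other call. At fold 2 and p 0.01, the methods' t-test ended 10 of the 12 calls in the pathway lists. The spread over all probes and testing without a filter ended 6. The median of a gene's probes ended the calls of Zfp467, Insr and Zfp521 and, at fold 2 and p 0.01, Cd68, and normexp those of Bglap and Pck1, and that of Zfp521 at fold 2 and p 0.01 (-0.92).

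Fabp4, Pparg, Cebpb, Plin2, Lpl and Zfp423 kept their direction in all 18 alternatives, but some values moved by over 1.5 times. Without Ntep replicate 1 all 5 probes of Lpl and Zfp423 were over 1.5 times smaller, as was Cebpb (0.24). Cebpb was 0.21 without control replicate 2, 0.62 without control replicate 1 and 0.61 with 75th percentile scaling, and Plin2 0.14 and 0.42 with the latter 2. With normexp Pparg was 0.37 and the dimmer Zfp423 probes -0.44 and -0.28. Directions changed for values that passed no rule. When 1 array was left out, Cebpd ranged from -0.55 to 0.065 and Ntep from -1.06 to 0.13. Dlk1 ranged from -1.18 to 0.34 at its brighter and from -0.65 to 0.44 at its dimmer probe, Scd2 from -0.31 to 0.060, Xbp1 from -0.27 to 0.020 and Lyz2 from -0.51 to 0.062. Cebpd and Dlk1 turned without control replicate 1, Dlk1 and Lyz2 without Ntep replicate 3, the Ntep probe without Ntep replicate 2, and Scd2 and Xbp1 without Ntep replicate 1. With 75th percentile scaling, which shifted the median of all genes by 0.15, Scd2 (0.069), Xbp1 (0.0082), Yap1 (0.072) and Lyz2 (0.060) turned, with normexp Lyz2 (0.016), and with the median of probes Nr3c1 (0.40). The median of the inhibitors turned with that scaling (0.048) and without control replicate 1 (0.038). Bglap, Lyz2 and the dimmer Dlk1 probe were not tested among probes well above background in 1 group. Cebpa and Cd36 were not well above background.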
